A study of Mus musculus with 144 samples.

Results

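Mesangial cells sorted from the glomeruli of 12-week-old mice were compared between BTBR ob/ob and BTBR WT animals by bulk RNA sequencing. The comparison took in every library labelled as a mesangial sample of that age, 16 of the 144 libraries of the series, with 8 from ob/ob mice (4 female, 4 male) and 8 from WT mice (4 female, 4 male). The ob/ob mice carry the Lep ob mutation on both copies, cannot make functional leptin and turn obese and hyperglycaemic, whereas WT mice are their lean counterparts. Both genotypes also carried the Gt(ROSA)26Sor mT/mG reporter allele, which is switched from red to green fluorescence in podocytes. Hyperglycaemia, obesity, high insulin and the missing leptin signal come together in ob/ob mice, so their parts in any difference cannot be told apart. The methods describe 12 weeks as an early stage of diabetic nephropathy.

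Glomeruli were collected with magnetic beads, dissociated enzymatically and sorted, and the mesangial gate took cells that were negative for CD45, positive for CD73, negative for podocalyxin and negative for EGFP. CD73 is the product of Nt5e and was itself used to select the cells. In bulk RNA, fewer cells of a type and less RNA per cell cannot be told apart. Nothing in the labels ties libraries to separate mice, so p-values measure the spread between libraries. For the genes compared between ob/ob and WT cells, that spread was estimated from all 46 mesangial libraries of the series, which include other ages. With the 12-week libraries alone, 2977 genes differed at an adjusted p under 0.05, against 4042 in the model of 46.

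Mesangial cells are the pericytes of the glomerulus. They hold the capillary loops together, contract in response to vasoactive hormones, take up filtered material and lay down the mesangial matrix that surrounds them. In diabetic kidney disease the mesangial matrix expands and mesangial cells can take on features of contractile, matrix-producing cells, with transforming growth factor beta (TGF-beta) as the best known inducer. Their identity is marked by the platelet-derived growth factor (PDGF) receptor Pdgfrb, the transcription factor Gata3, the integrin Itga8 and the protease Adamts5.

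The 16 libraries held 18.7 to 38.1 M counts each and 19881 to 21897 detected genes. Mitochondrial genes took between 7.54% and 10.7% of counts. Log2 CPM (counts relative to the scaled library size) correlated by 0.918 to 0.977 between libraries of the same genotype and by 0.902 to 0.963 between genotypes. WT male 1, WT female 2 and ob/ob female 4 stood apart from their groups in several genes, and ob/ob female 4 had Xist, the RNA of the inactive X chromosome, at 21.3 CPM against 565 to 675 in the other ob/ob females. The defining markers of mesangial cells were present in every library. Itga8 had 4533 to 6153 CPM in WT cells (median 5635) and 4927 to 6113 in ob/ob cells (median 5613). The summed level of the 9 mesangial markers was 17185 CPM in WT and 17105 in ob/ob cells on average (exact permutation test, two-sided, p = 0.897). Of these 9 markers 1 was called higher and 5 lower in ob/ob cells, so the sum hides changes of its members. Thy1, a marker of cultured and rat mesangial cells, was below the filter. Podocyte markers summed to 378 to 519 CPM in WT and 482 to 658 in ob/ob libraries, higher in ob/ob (exact permutation test, two-sided, p = 0.000466, 0.00699 after Benjamini-Hochberg adjustment over 15 such library values). They summed to at least 39858 CPM in sorted podocytes of the same age. In mesangial libraries most of the sum was Synpo, at 282 to 389 CPM in WT cells (median 323) and 397 to 527 in ob/ob cells (median 463), and Synpo and Plce1 were among the members called higher. The defining podocyte genes Nphs1 (log2 fold change 0.10) and Podxl (0.08) were not called. A model with this sum as a covariate was fitted as well, and its counts are given with most of the gene groups that it moved. Because the sum differed between genotypes, this term overlaps with genotype. A call lost with it can come from that overlap and is not shown to come from podocyte RNA. Summed markers of parietal epithelium (14.2 and 30.8 CPM in WT and ob/ob cells on average), renin cells (13.6 and 32.1) and erythroid cells (0.436 and 1.16) were also higher in ob/ob cells, and those of interstitial fibroblasts (801 and 662) were lower, with exact permutation p between 0.00404 and 0.0104 (two-sided). Endothelial markers were at 1153 and 1308 CPM (p = 0.0241, 0.0516 after adjustment, exact permutation test), against at least 13211 in sorted gECs (glomerular endothelial cells). The part of these cells in the results was not tested.

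A total of 4042 of 17951 tested genes (22.5%) differed between ob/ob and WT cells at an adjusted p under 0.05 in edgeR's quasi-likelihood test. Of these, 1880 (10.5% of tested genes) were higher in ob/ob cells and 2162 (12.0%) were lower, with 803 changed at least 2-fold. This balance was not firm. It turned with RLE scaling (2064 higher, 1968 lower), DESeq2 (2167 and 2039), other filters, the 12-week libraries alone, the replicate block and each sex alone (1690 and 1227 in males), and without any of ob/ob females 1, 3 or 4 or ob/ob males 1, 3 or 4 (2190 and 1616 without ob/ob male 4). In 545 genes (3.04%) every ob/ob library lay above every WT library in CPM, and in 365 (2.03%) every ob/ob library lay below. Groups that do not overlap in this way are called separated in what follows. Without WT male 1, WT female 2 and ob/ob female 4, the counts were 1934 higher and 2303 lower. Below, "log2 fold change" is ob/ob minus WT ± SE, "called" means an adjusted p under 0.05, and "rose" and "fell" are used for called genes.

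Named first are the largest rises and falls among called genes with separated groups and a mean of at least 5 CPM in the higher group, so separation and that level were part of the choice. The rising genes had low levels in WT mesangial cells. Gpr176, an orphan G protein-coupled receptor (ENSMUSG00000040133, GRCm38 chr2:118277110-118373419), had 0.127 to 0.910 CPM in WT cells (median 0.251) and 7.18 to 26.7 in ob/ob cells (median 20.0). Every ob/ob library was above every WT library, with a log2 fold change of 5.6 ± 0.42 (edgeR adjusted p = 2.88e-14). Galnt3, which starts O-linked glycosylation of secreted proteins such as FGF23 (chr2:66082766-66124994), had 0.101 to 1.17 CPM in WT cells (median 0.312) and 4.5 to 19.6 in ob/ob cells (median 13.4). It changed by 5.02 ± 0.39 (edgeR adjusted p = 4.82e-14), and the lowest ob/ob library, female 4 at 4.5 CPM, was still above the highest WT library. Fam198b, a Golgi membrane protein gene, had 0 to 0.542 CPM in WT cells (median 0.175) and 2.78 to 10.0 in ob/ob cells (median 4.64) and a log2 fold change of 4.85 ± 0.59. Gabra3, a subunit of the GABA-A receptor, had 0 to 0.390 CPM in WT cells (median 0.237) and 3.74 to 7.54 in ob/ob cells (median 5.96) and changed by 4.81 ± 0.49. Neither gene overlapped between genotypes, and 1 or more WT libraries of each had no counts at all.

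Several of the other strong rises encode secreted proteins. Ogn, the small leucine-rich proteoglycan osteoglycin, had 0.230 to 1.6 CPM in WT cells (median 1.0) and 14.0 to 31.2 in ob/ob cells (median 21.4). Angpt4, an angiopoietin that binds the endothelial receptor Tie2 (chr2:151911210-151945337), had 0.667 to 4.03 CPM in WT cells (median 2.22) and 25.6 to 48.4 in ob/ob cells (median 38.4), with a log2 fold change of 4.11 ± 0.27 (edgeR adjusted p = 3.65e-16). Igfbp3, a carrier of insulin-like growth factors (IGFs), had 0.0834 to 0.487 CPM in WT cells (median 0.258) and 1.8 to 8.91 in ob/ob cells (median 5.24). All 3 were separated, although the ob/ob libraries of Igfbp3 covered a wide range and its fold change was 3.25 ± 0.66 in females and 5.17 ± 0.71 in males. Spon2, a secreted matrix protein, had 1.23 to 12.5 CPM in WT cells (median 2.8) and 26.0 to 102 in ob/ob cells (median 53.4). C1qtnf3, an adipokine of the C1q and TNF family, had 2.61 to 4.76 CPM in WT cells (median 4.06) and 28.8 to 61.8 in ob/ob cells (median 37.4). The spread was widest for Spon2, where WT female 2, at 12.5 CPM, lay far above the other WT libraries and below every ob/ob library.

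The remaining 3 of the 12 largest rises were membrane proteins or enzymes. Ptprq, a receptor phosphatase that acts on inositol lipids, had 0.626 to 3.21 CPM in WT cells (median 0.977) and 15.6 to 28.8 in ob/ob cells (median 22.3). Tmtc1, which adds mannose to cadherins in the endoplasmic reticulum, had 2.61 to 6.52 CPM in WT cells (median 4.91) and 32.1 to 74.0 in ob/ob cells (median 65.4), with a log2 fold change of 3.68 ± 0.21 (edgeR adjusted p = 6.75e-18). Dpep1, a membrane dipeptidase known from the proximal tubule brush border, had 0.223 to 1.13 CPM in WT cells (median 0.947) and 4.88 to 13.4 in ob/ob cells (median 8.97). All were separated, and the summed proximal tubule markers of the same libraries gave p = 0.973 between genotypes (exact permutation test, two-sided), and their part in this result was not tested.

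The largest falls under the same choice had low levels in ob/ob cells. Ephb1, a receptor for B-type ephrins (chr9:101922128-102354693), had 46.2 to 97.0 CPM in WT cells (median 72.8) and 1.46 to 6.91 in ob/ob cells (median 3.94), an 18.8-fold lower level (log2 fold change -4.24 ± 0.27, edgeR adjusted p = 1.30e-16). Postn, the matricellular protein periostin (chr3:54361109-54391037), had 27.6 to 46.5 CPM in WT cells (median 39.6) and 2.12 to 4.73 in ob/ob cells (median 2.81) and a log2 fold change of -3.51 ± 0.19 (edgeR adjusted p = 7.51e-19). Gfpt2, which catalyses the entry step of the hexosamine pathway (chr11:49794178-49838613), had 19.2 to 41.5 CPM in WT cells (median 24.7) and 1.74 to 3.64 in ob/ob cells (median 2.36) and changed by -3.5 ± 0.20 (edgeR adjusted p = 3.58e-18). In each of these the lowest WT library was far above the highest ob/ob library. Kcnj8, the pore subunit of the vascular ATP-sensitive potassium channel, had 8.11 to 24.8 CPM in WT cells (median 14.7) and 0.987 to 3.67 in ob/ob cells (median 1.28). Its partner in that channel, the sulphonylurea receptor Abcc9, had 185 to 243 CPM in WT cells (median 205) and 89.3 to 164 in ob/ob cells (median 133), also separated, with a log2 fold change of -0.66 ± 0.11. Vdr, the vitamin D receptor, had 16.3 to 45.4 CPM in WT cells (median 28.6) and 1.86 to 9.4 in ob/ob cells (median 4.93). Both genes of the channel fell, the pore gene 9.14-fold and the receptor gene 1.58-fold.

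The other large falls covered proteases, adaptors and kinases. Adam28, a membrane metalloprotease, had 5.66 to 17.2 CPM in WT cells (median 9.37) and 0.347 to 2.58 in ob/ob cells (median 1.12). Stc1, the secreted hormone stanniocalcin, had 3.47 to 16.5 CPM in WT cells (median 9.16) and 0.598 to 3.0 in ob/ob cells (median 1.61). Efs, an adaptor of Src family kinases, had 4.88 to 10.1 CPM in WT cells (median 5.78) and 0.258 to 2.12 in ob/ob cells (median 0.982). These ranges did not touch, although that of Stc1 came close, with its lowest WT library at 3.47 CPM and its highest ob/ob library at 3.0 CPM. Camk2a, a calcium and calmodulin-dependent kinase subunit, had 16.2 to 30.5 CPM in WT cells (median 19.8) and 1.77 to 5.9 in ob/ob cells (median 4.74) and changed by -2.26 ± 0.19. Tmem132e (-3.04), Clmn (-3.0), which encodes the actin-binding protein calmin, and Ankrd63 (-2.23) were likewise separated.

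**Figure D1:**
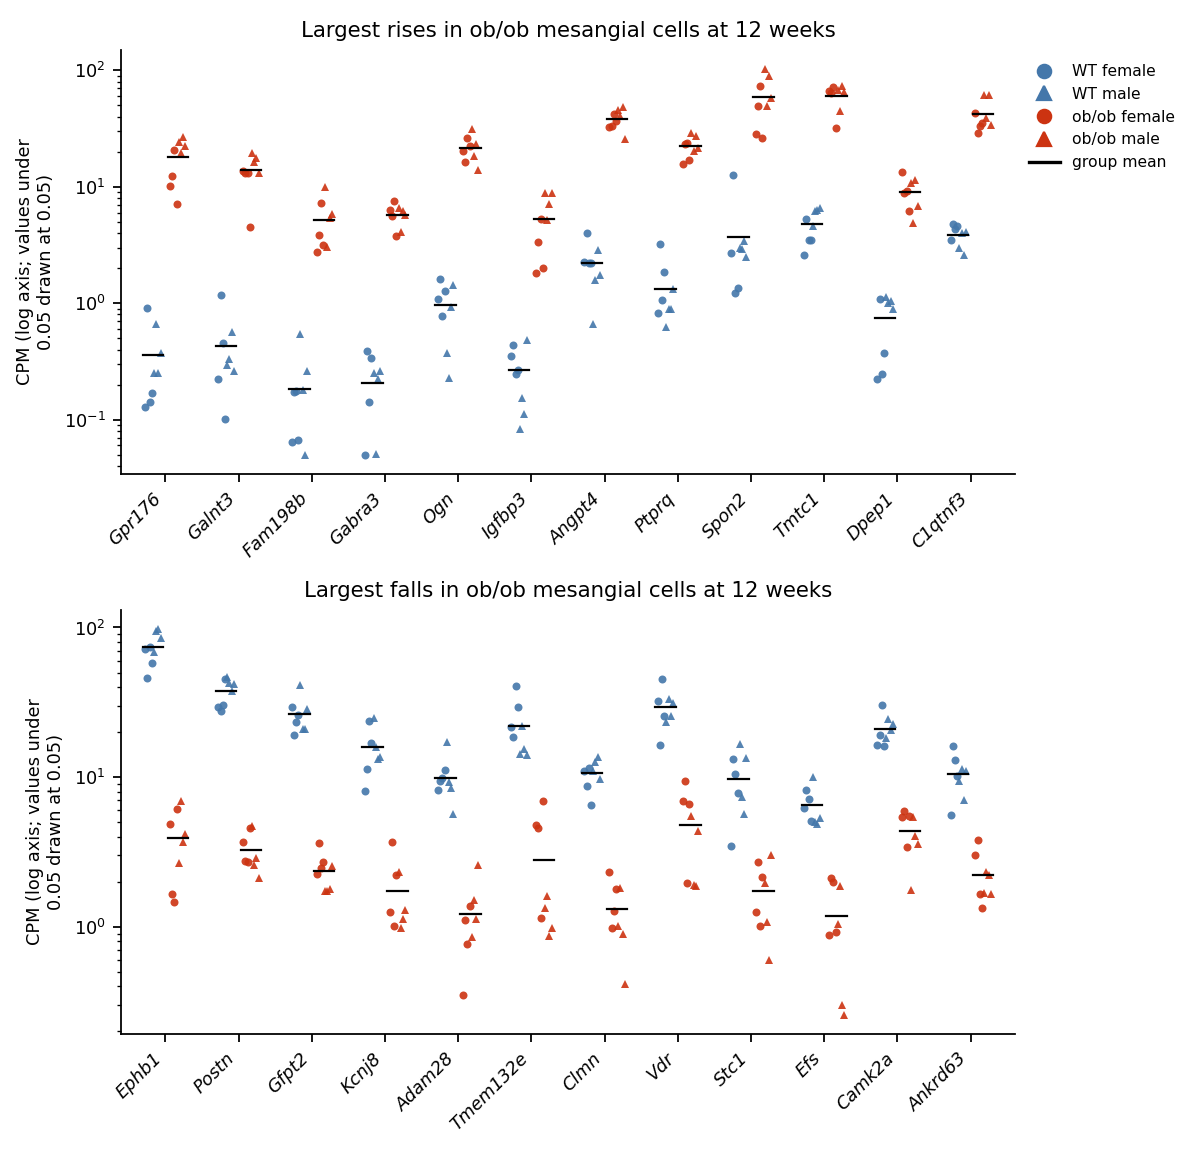
CPM (log axis) of the 12 genes with the largest rise (upper panel) and the 12 with the largest fall (lower panel) in each of the 8 WT (blue) and 8 ob/ob (red) libraries, with circles for females, triangles for males, a bar at the group mean, and values under 0.05 drawn at 0.05. The genes were chosen among those that do not overlap between genotypes, and WT medians of the rising genes lie between 0.175 and 4.91 CPM.

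The next genes are the most abundant by mean deposited TPM among those called and changed at least 2-fold. Sfrp2, a secreted Wnt antagonist (chr3:83766321-83774316), had 3114 to 5179.9 CPM in WT cells (median 4149.9) and 1087 to 1532 in ob/ob cells (median 1285), and by deposited TPM, a scale per transcript length, it went from a mean of 4281 to 1315. Every ob/ob library was below every WT library, with a log2 fold change of -1.7 ± 0.12 (edgeR adjusted p = 4.42e-15). F2r, the thrombin receptor PAR1 (chr13:95601803-95618487), had 542 to 756 CPM in WT cells (median 732) and 1782 to 2527 in ob/ob cells (median 1977), and its mean TPM went from 415 to 1217. It rose by 1.57 ± 0.10 on the log2 scale (edgeR adjusted p = 4.22e-17) with the groups separated. Among the other abundant genes with a change of at least 2-fold, the ferroxidase gene Cp (1.06 ± 0.11), the non-muscle myosin gene Myh10 (1.11 ± 0.11), the Golgi mannosidase gene Man2a1 (1.33 ± 0.10) and the Wnt antagonist gene Dkk2 (1.27 ± 0.11) rose. Steap4, a metalloreductase, fell (-1.33 ± 0.09). All of these were separated. H2-D1, a class I histocompatibility gene, had 173 to 251 CPM in WT cells (median 232) and 242 to 1295 in ob/ob cells (median 352), and the groups overlapped. Its highest value came from ob/ob female 3, and without that library the log2 fold change dropped from 1.03 to 0.63 and was still called, whereas in males alone it was 0.49 and not called.

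Mesangial and pericyte genes, examined as a check of identity, fell more often than they rose, with 2 of 14 tested members higher and 5 lower (median log2 fold change -0.11, against -0.035 over all tested genes, of which 10.5% were higher and 12.0% lower). Pdgfrb, the PDGF receptor that maintains pericytes, had 2806 to 3823 CPM in WT cells (median 3064) and 1843 to 2621 in ob/ob cells (median 2133). It fell 1.48-fold with the groups separated (log2 fold change -0.57 ± 0.07, edgeR adjusted p = 2.68e-08). The transcription factor gene Gata3 (-0.43), the intermediate filament gene Des (-0.42), the ADP-ribosyltransferase gene Art3 (-0.38) and the sorting marker Nt5e (-0.44) fell as well. Serpine2, an inhibitor of thrombin and plasminogen activators, had 2126 to 2655 CPM in WT cells (median 2418) and 3660.0 to 4468 in ob/ob cells (median 4038) and rose by 0.75 ± 0.07, separated. Rgs5, a pericyte regulator of G protein signalling, rose (0.72). Not called were Itga8 (0.02), Adamts5 (-0.02), Cspg4 (0.01), Notch3 (0.01) and the angiotensin receptor gene Agtr1a (-0.06).

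Contractile genes and targets of serum response factor (SRF) mostly rose. SRF binds the CArG box and, with the actin-regulated coactivators MRTF-A (Mkl1) and MRTF-B (Mkl2), switches on actin, myosin and tropomyosin genes. Of 28 tested members 21 rose and none fell (75% called, against 22.5% of all tested genes), and the median log2 fold change was 0.44. In 12 members every ob/ob library lay above every WT library, a pattern found in 3.04% of all tested genes. The study picked out Acta2 and Tagln from its single-cell data and from its bulk data, which include these same libraries. It also reported MRTF-SRF targets as a group from these bulk data. The direction of this list is therefore no independent evidence here. With the podocyte marker sum as a covariate the count was 8 higher and 1 lower, so how many members pass depends on that term. The sum was itself higher in ob/ob cells, and the part of podocyte RNA in the lower count was not tested. Without the 3 libraries that stood apart it was 20 higher and 1 lower.

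The smooth muscle isoforms showed the largest folds from low levels. Acta2, smooth muscle actin, had 4.93 to 24.0 CPM in WT cells (median 11.8) and 24.6 to 286 in ob/ob cells (median 111), with a log2 fold change of 3.19 ± 0.33 (edgeR adjusted p = 2.33e-10). Lmod1, which nucleates actin filaments in smooth muscle, had 0.862 to 3.49 CPM in WT cells (median 2.27) and 10.4 to 43.8 in ob/ob cells (median 24.0), with a log2 fold change of 3.39 ± 0.34 (edgeR adjusted p = 7.96e-11). Tagln, an actin-binding calponin family protein, had 2.67 to 6.55 CPM in WT cells (median 5.02) and 9.72 to 42.8 in ob/ob cells (median 22.0). All 3 were separated. Ppp1r14a, an inhibitor of myosin phosphatase, had 1.46 to 4.46 CPM in WT cells (median 2.15) and 6.66 to 14.9 in ob/ob cells (median 12.0), and its highest WT library, female 2 at 4.46 CPM, stayed below the lowest ob/ob library. Smooth muscle myosin Myh11, with 2.11 to 19.7 CPM in WT cells (median 7.42) and 1.71 to 17.1 in ob/ob cells (median 5.65), overlapped fully and was not called (0.04 ± 0.47). Neither were the myosin light chain kinase gene Mylk (-0.07), smoothelin Smtn (-0.22) nor Myocd (0.55), the muscle-restricted SRF coactivator. Cnn1 and Actg2 had too few counts to be tested. The summed smooth muscle markers went from 55.5 to 173 CPM (exact permutation test, two-sided, p = 0.000932), but without Acta2 and Tagln they ran from 27.8 to 52.5 CPM in WT (median 34.6) and from 16.2 to 35.3 in ob/ob cells (median 23.6). Of the other members, Mustn1 (-0.89) and Ntrk3 (-1.34) fell.

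Widely expressed cytoskeletal genes rose by less. Fhl1, which encodes a LIM domain protein of muscle, had 84.0 to 120.0 CPM in WT cells (median 91.9) and 149.6 to 195 in ob/ob cells (median 171) and a log2 fold change of 0.83 ± 0.09. Cald1, which encodes the actin-binding protein caldesmon, had 2864 to 3715 CPM in WT cells (median 3324) and 4226 to 5652 in ob/ob cells (median 4833) and changed by 0.56 ± 0.07. Alpha-actinin Actn1 (0.82 ± 0.11), filamin Flna (0.65 ± 0.11), the tropomyosins Tpm1 (0.63 ± 0.12) and Tpm4 (0.62 ± 0.12), talin Tln1 (0.38 ± 0.08), the myosin light chain gene Myl9 (0.38 ± 0.09) and the myosin heavy chain gene Myh9 (0.30 ± 0.07) also rose with separated groups. Vinculin Vcl (0.07), Actg1 (0.38) and Srf itself (0.38) were not called. Of 18 tested regulators of ROCK, MRTF and actin turnover, 5 rose and 2 fell (median 0.11). Mkl2 had 59.6 to 81.8 CPM in WT cells (median 73.1) and 95.1 to 116 in ob/ob cells (median 102) and rose by 0.51 ± 0.07, and Mkl1 rose by 0.25 ± 0.06. The LIM kinase gene Limk1 (-0.30) and the guanine nucleotide exchange factor gene Arhgef12 (-0.18) fell. Rhoa and Rock1 (-0.08) were not called, while Rock2 rose (0.18).

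The promoters of the contractile genes were searched for the CArG box on both strands, in windows from 250 bases before to 50 bases after the transcript start (RefSeq, GRCm38.p6). At least 1 box lay in a promoter of 9 of the 25 members with an entry (36.0%), against 488 of 27025 genes with an entry (1.81%). The list was made up of known SRF targets as well as contractile genes, so a higher share was built into its choice. The 5 members that rose and hold a box are shown here with the box in capitals, because the box is the sequence that SRF recognises, and Srf follows as a member with 2 boxes that was not called.
Cnn2, chr10:79988524-79988573, plus strand: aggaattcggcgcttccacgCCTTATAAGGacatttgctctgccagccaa
Myl9, chr2:156775283-156775332, plus strand: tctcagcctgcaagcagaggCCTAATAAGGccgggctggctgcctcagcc
Filip1l, chr16:57549160-57549209, plus strand: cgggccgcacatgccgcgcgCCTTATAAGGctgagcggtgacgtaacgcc
Fhl1, chrX:56779561-56779610, plus strand: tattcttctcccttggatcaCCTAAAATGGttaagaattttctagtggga
Myl6, chr10:128493030-128493079, minus strand: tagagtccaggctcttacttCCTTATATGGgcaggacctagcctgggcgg
Srf, chr17:46556195-46556264, minus strand: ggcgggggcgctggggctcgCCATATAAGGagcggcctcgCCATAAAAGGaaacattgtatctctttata

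The boxes of Cnn2, Filip1l and Myl6 began 56, 62 and 50 bases before the start, those of Fhl1 and Myl9 102 and 161 bases before it. Cnn2 and Filip1l share the same box, and that of Myl9 differs from it in its core. Holding a box did not separate the members that rose from the rest, since 5 of 18 that rose (27.8%) and 4 of 7 others (57.1%) had 1. Acta2 had no match in this window, which says only that these letters are not in it, and Tagln, Myh11 and Actb had no entry. Among all genes with an entry, 27 of 1358 called higher (1.99%) and 22 of 1566 called lower (1.4%) held a box, both near the share of all genes. A match is a description of the sequence and not a bound site.

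**Figure D2:**
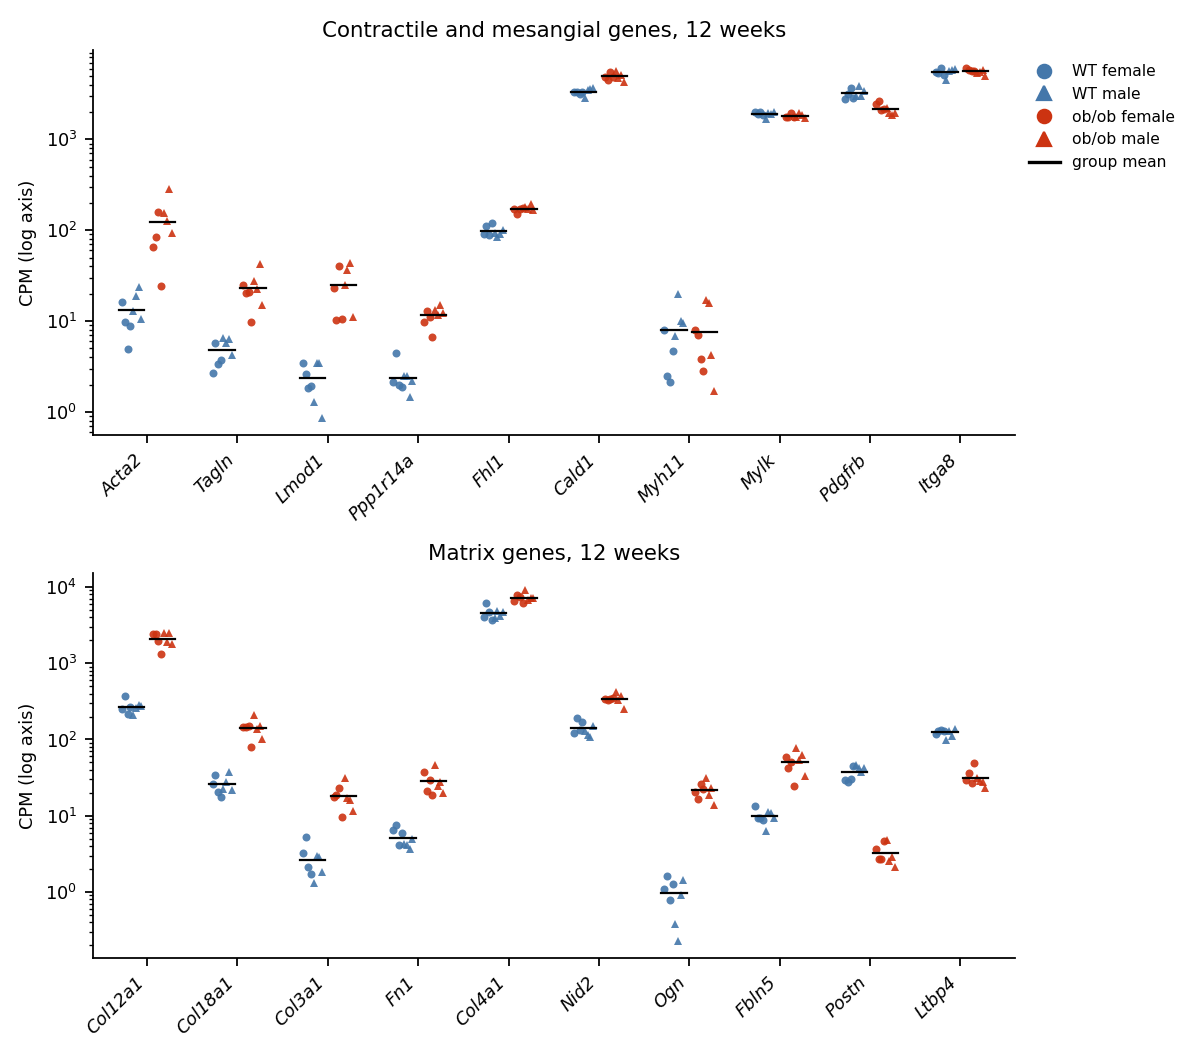
CPM (log axis) of 10 contractile and mesangial genes (upper panel) and 10 matrix genes (lower panel) in each WT (blue) and ob/ob (red) library, circles for females and triangles for males, with a bar at the group mean. Acta2, Tagln, Lmod1 and Ppp1r14a are separated between genotypes, Myh11, Mylk and Itga8 overlap, and Postn and Ltbp4 are the matrix genes that are lower in ob/ob cells.

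Collagen genes mostly rose, with 15 of 21 tested members higher, 2 lower and a median of 0.72 on the log2 scale. With the podocyte covariate 10 rose and 2 fell. Col12a1, a collagen that sits on the surface of fibrils, had 207 to 366 CPM in WT cells (median 265) and 1315 to 2493 in ob/ob cells (median 2200.4), which made it 7.9-fold higher (log2 fold change 2.98 ± 0.19, edgeR adjusted p = 1.61e-16). Col18a1, the basement membrane collagen that releases endostatin, had 17.6 to 37.2 CPM in WT cells (median 24.4) and 79.9 to 209 in ob/ob cells (median 148) and changed by 2.43 ± 0.19 (edgeR adjusted p = 4.51e-14). Col14a1, another fibril-associated collagen, had 4.42 to 8.84 CPM in WT cells (median 6.8) and 17.2 to 57.6 in ob/ob cells (median 33.4). All 3 were separated. The network-forming chains Col4a1 and Col4a2, the main collagen of the mesangial matrix, started from far higher levels, with 3713 to 6084 CPM in WT cells (median 4389) and 6253 to 9013 in ob/ob cells (median 7176) for Col4a1. Their log2 fold changes were 0.69 ± 0.12 and 0.84 ± 0.09, both separated, and the chains of the filter's own collagen gave 0.48 for Col4a3 (called) and 0.02 for Col4a4 (not called).

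Fibrillar collagens did not move as a block. Col3a1 had 1.29 to 5.24 CPM in WT cells (median 2.49) and 9.62 to 31.7 in ob/ob cells (median 17.5) and rose by 2.76 ± 0.28, separated, while Col1a2, with 68.4 to 151 CPM in WT cells (median 111) and 39.8 to 74.3 in ob/ob cells (median 60.9), fell 1.9-fold (log2 fold change -0.93 ± 0.13). Col1a1 rose (2.72 ± 0.94) but stayed under 1 CPM on average in both genotypes. Col5a1 (0.72 ± 0.07), Col5a3 (2.08 ± 0.30) and the short-chain collagen Col8a1 (1.1 ± 0.13) rose with separated groups, and Col8a2, the partner of Col8a1, fell (-0.97 ± 0.27). The genes of type VIII collagen thus moved in opposite directions, from a level of 69.6 ± 13.5 CPM for Col8a1 and 2.09 ± 0.398 for Col8a2 in WT cells (SD, n = 8).

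Among laminins, nidogens and other basement membrane genes 11 of 21 rose and 4 fell (median 0.29). Nid2, a nidogen that links laminin to type IV collagen, had 107 to 189.6 CPM in WT cells (median 133) and 251 to 414 in ob/ob cells (median 340.3) and a log2 fold change of 1.29 ± 0.14. Nid1 (0.65 ± 0.07), the laminin chains Lama1 (2.42 ± 0.28), Lama2 (0.72 ± 0.08) and Lamb1 (0.52 ± 0.07) and the netrin Ntn4 (1.54 ± 0.26) also rose, all separated. Fras1, a component of the epithelial basement membrane, had 72.7 to 99.6 CPM in WT cells (median 82.1) and 35.9 to 52.5 in ob/ob cells (median 44.0) and fell 1.91-fold, while its relative Frem2 rose (0.95 ± 0.12). Npnt, the ligand of the mesangial integrin formed with Itga8, fell (-1.29 ± 0.19), with Itga8 itself at 0.02 ± 0.05. Lama3 fell as well (-2.1 ± 0.42), and Sparc (0.02), Agrn (0.01) and Lamb2 (-0.01) were not called.

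Proteoglycans, elastic fibre and matricellular genes had 18 of 36 members higher and 5 lower (median 0.44). With the podocyte covariate the counts were 9 and 3, and without ob/ob female 3 or ob/ob female 4 they were 18 and 3. Besides Ogn, the small leucine-rich proteoglycans decorin Dcn (2.08 ± 0.21), fibromodulin Fmod (1.67 ± 0.31) and Prelp (2.33 ± 0.24) rose with separated groups. Biglycan Bgn, far more abundant at 1601 ± 225 CPM in WT cells (SD, n = 8), rose by 0.34 ± 0.07. Fibronectin Fn1 had 3.7 to 7.62 CPM in WT cells (median 4.6) and 18.8 to 46.1 in ob/ob cells (median 26.3) and changed by 2.45 ± 0.23 (edgeR adjusted p = 1.55e-11). Fbln5, an organiser of elastic fibres, had 6.22 to 13.6 CPM in WT cells (median 9.46) and 24.4 to 76.8 in ob/ob cells (median 52.3) and changed by 2.33 ± 0.18. Both were separated, as was fibrillin Fbn1 (0.55 ± 0.07). In the opposite direction, Ltbp4, which binds latent TGF-beta and is needed for elastic fibres, had 97.9 to 138 CPM in WT cells (median 131) and 23.2 to 48.5 in ob/ob cells (median 28.7) and a log2 fold change of -1.99 ± 0.10 (edgeR adjusted p = 7.11e-19). Elastin Eln (-0.86) and tenascin Tnxb (-0.82) fell with it. Ctgf, with 2206 to 4784 CPM in WT cells (median 3369.8) and 2864 to 4143 in ob/ob cells (median 3642), overlapped and was not called (0.03 ± 0.13), nor was Tnc (0.38).

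Enzymes that process and crosslink collagen rose in 13 of 19 cases and fell in none (median 0.54), or in 8 with the podocyte covariate. Loxl2, a lysyl oxidase that crosslinks type IV collagen, had 52.1 to 76.1 CPM in WT cells (median 69.5) and 125 to 196 in ob/ob cells (median 175) and changed by 1.32 ± 0.09 (edgeR adjusted p = 5.44e-15). The procollagen protease Bmp1 (0.54 ± 0.06), the lysyl hydroxylase Plod2 (0.80 ± 0.10) and the prolyl hydroxylase subunit P4ha3 (2.3 ± 0.30) rose too, all separated. Serpinh1, the collagen chaperone HSP47, was not called (0.04 ± 0.13).

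Matrix proteases and their inhibitors rose side by side, with 15 of 26 higher and 2 lower (median 0.54). The gelatinase Mmp2 had 257 to 357 CPM in WT cells (median 314) and 537 to 679 in ob/ob cells (median 615) and rose by 0.94 ± 0.07. Reck, a membrane inhibitor of that class of proteases, had 57.1 to 80.6 CPM in WT cells (median 73.0) and 101 to 139 in ob/ob cells (median 132) and rose by 0.83 ± 0.07. The groups did not overlap in either. Inhibitors Timp3 (0.60 ± 0.11) and Timp4 (3.6 ± 0.68), the cathepsins Ctsk (0.83 ± 0.09) and Ctss (2.44 ± 0.27) and the plasminogen activator Plau (0.44 ± 0.08) rose with separated groups, and the membrane protease Mmp16 fell (-1.09 ± 0.10). Integrin genes were split, with 7 of 18 higher and 4 lower. Itga9 (0.84 ± 0.07) and Itgav (0.72 ± 0.07) rose and Itga4 fell (-0.65 ± 0.07), all separated, while Itgb3 fell (-1.41 ± 0.25) with overlap.

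In TGF-beta and bone morphogenetic protein (BMP) signalling, ligands and antagonists both moved. Of 13 ligand genes 4 rose and 1 fell. Tgfb1 had 105 to 183 CPM in WT cells (median 144) and 191 to 216 in ob/ob cells (median 207) and rose by 0.49 ± 0.07, Tgfb3 rose by 0.77 ± 0.12 and Bmp2 by 1.14 ± 0.17. Gdf11, a ligand of the activin receptors, had 90.9 to 136 CPM in WT cells (median 113) and 42.3 to 59.8 in ob/ob cells (median 53.5) and fell 2.24-fold (log2 fold change -1.17 ± 0.10). All of these were separated, and Bmp4 (0.31) and Gdf10 (-0.25) were not called. Receptor and Smad genes showed 4 of 19 higher and 4 lower (median -0.05). The co-receptor endoglin Eng had 1066 to 1348 CPM in WT cells (median 1196) and 1654 to 1943 in ob/ob cells (median 1829.9) and rose by 0.61 ± 0.06, Bmpr1b rose by 1.61 ± 0.22, and Acvr1 (-0.35 ± 0.06) and Acvrl1 (-0.32 ± 0.06) fell. Neither Tgfbr1 (-0.15), Tgfbr2 (0.02), Smad2 (-0.05) nor Smad3 (-0.13) was called.

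Inhibitors of the pathway had 6 of 9 members higher and 1 lower (median 0.63). Nbl1, a secreted BMP antagonist, had 3.59 to 7.42 CPM in WT cells (median 5.05) and 24.8 to 37.0 in ob/ob cells (median 30.5) and rose by 2.65 ± 0.16 (edgeR adjusted p = 2.74e-17). Fstl3, which binds activin, had 1.08 to 2.58 CPM in WT cells (median 1.88) and 4.65 to 12.5 in ob/ob cells (median 10.7) and rose by 2.33 ± 0.25. Smad7, the intracellular inhibitor induced by the pathway itself, had 51.0 to 73.5 CPM in WT cells (median 66.2) and 99.3 to 170.1 in ob/ob cells (median 113) and rose by 0.86 ± 0.10. Fstl1 (0.79 ± 0.08) and Twsg1 (0.55 ± 0.08) rose and the pseudoreceptor Bambi fell (-0.62 ± 0.12), and each of these 6 genes was separated. Smad6 rose as well (0.63 ± 0.13). Of 11 target genes 3 rose and none fell (27.3% called, near the 22.5% of all tested genes). Pmepa1 (1.11 ± 0.14) and Skil (0.33 ± 0.09) were among them, whereas the BMP targets Id1 (-0.27) and Id3 (-0.08) were not called.

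Growth factor ligands moved both ways (8 of 22 higher, 6 lower, median 0.21). Pdgfc, a PDGF ligand, had 42.9 to 63.8 CPM in WT cells (median 57.7) and 11.1 to 24.1 in ob/ob cells (median 19.6) and fell 3.04-fold (log2 fold change -1.61 ± 0.13, edgeR adjusted p = 4.52e-13), while Pdgfa (0.60 ± 0.10) and Pdgfb (0.48 ± 0.15) rose. Angpt2, which opposes Tie2 activation, had 344 to 422 CPM in WT cells (median 375) and 562 to 726 in ob/ob cells (median 628) and rose by 0.72 ± 0.08. Vegfc, a lymphatic and vascular growth factor, rose by 1.03 ± 0.16, and Vegfa, with 5.64 to 19.3 CPM in WT cells (median 9.4) and 5.79 to 16.3 in ob/ob cells (median 10.8), was not called (0.08). Hbegf, a ligand of the EGF receptor, fell (-1.15 ± 0.16), as did pleiotrophin Ptn (-0.68 ± 0.08), and both were separated. Of 20 receptors 4 rose and 3 fell (35% called, against 22.5% of all tested genes), or 1 and 3 without the 3 libraries that stood apart. Nrp1, a co-receptor of VEGF and semaphorins, had 2506 to 3774 CPM in WT cells (median 3217) and 1772 to 2313 in ob/ob cells (median 2019.6) and fell by 0.64 ± 0.08 on the log2 scale, beside Pdgfrb. The IGF receptor Igf1r rose (0.49 ± 0.07) and Egfr fell (-0.45 ± 0.13). IGF binding proteins had 4 of 6 members higher (Igfbp3, Igfbp4 0.37, Igfbp6 2.16 and Igfbp7 0.28), and Igfbp5, the most abundant at 10491 to 17631 CPM in WT cells (median 13307) and 11079 to 15541 in ob/ob cells (median 12068), was not called (-0.15 ± 0.14).

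Eph receptors and ephrins moved both ways (4 of 18 higher, 6 lower, median -0.01). In all 55.6% were called, against 22.5% of all tested genes, and log2 fold changes ran from -4.24 to 2.83. Next to Ephb1, Epha7 had 92.2 to 111 CPM in WT cells (median 98.5) and 50.0 to 75.7 in ob/ob cells (median 60.5) and Ephb3 had 5.98 to 13.0 CPM in WT cells (median 8.26) and 2.84 to 4.93 in ob/ob cells (median 4.34). Both fell, with log2 fold changes of -0.69 ± 0.07 and -1.16 ± 0.14 and separated groups, while Epha2 rose (1.18 ± 0.18) and the ligand Efnb2 was not called (0.07). Among semaphorins, netrins, Slits and their receptors 10 of 34 rose and 8 fell (median 0.02), or 7 and 3 with the podocyte covariate. Without 1 library as few as 3 fell (3 without ob/ob male 3, 4 without ob/ob female 3 and 5 without ob/ob male 1 or 4). Sema3e, the ligand of plexin D1, had 4.15 to 9.14 CPM in WT cells (median 6.26) and 24.4 to 73.0 in ob/ob cells (median 42.5) and rose by 2.82 ± 0.23 (edgeR adjusted p = 2.34e-13), and its receptor gene Plxnd1 fell by 0.22 ± 0.07 on the log2 scale. Plxna2 (0.70 ± 0.09) and Plxnb2 (0.45 ± 0.07) rose, both separated.

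Wnt pathway genes had 7 of 32 members higher and 6 lower (median 0.01), and the called genes included secreted antagonists and Frizzled receptors. Sfrp2 fell and Dkk2 rose, as given above. Frzb, another secreted Frizzled-related protein, had 7.97 to 12.2 CPM in WT cells (median 9.62) and 14.3 to 25.0 in ob/ob cells (median 22.5) and rose by 1.1 ± 0.13. Fzd7 (0.80 ± 0.10) rose, Fzd3 (-0.72 ± 0.09) and Fzd8 (-0.91 ± 0.14) fell, and the groups of these 4 genes did not overlap. Axin2, a target that reports canonical signalling, rose by 0.67 ± 0.12 with overlap. In the Notch pathway 4 of 16 rose and 4 fell (median -0.28). The ligand Jag1 had 42.7 to 55.1 CPM in WT cells (median 50.8) and 79.1 to 150.0 in ob/ob cells (median 108) and rose by 1.17 ± 0.13, while Jag2 had 12.4 to 19.2 CPM in WT cells (median 17.0) and 3.78 to 10.4 in ob/ob cells (median 5.64) and fell by 1.48 ± 0.18 on the log2 scale. Notch4 rose (1.32 ± 0.09), Notch3, the pericyte receptor, was not called (0.01 ± 0.06), and the target genes Hes1 (-0.58 ± 0.12) and Heyl (-1.0 ± 0.21) fell.

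Receptors for vasoactive signals had 8 of 32 members higher and 10 lower (5 and 8 with the podocyte covariate). The natriuretic peptide receptors rose together, with 167 to 221 CPM in WT cells (median 198) and 288 to 354 in ob/ob cells (median 327) for Npr1, the guanylyl cyclase receptor of atrial natriuretic peptide. Log2 fold changes were 0.71 ± 0.07 for Npr1, 0.41 ± 0.06 for Npr2 and 0.69 ± 0.09 for the clearance receptor Npr3, all separated. In contrast, the nitric oxide receptor subunits fell, with 855 to 1233 CPM in WT cells (median 995) and 584 to 771 in ob/ob cells (median 675) for Gucy1a3 (log2 fold change -0.59 ± 0.07, separated) and -0.40 ± 0.06 for Gucy1b3. The prostaglandin E2 receptor Ptger2 had 3.91 to 9.54 CPM in WT cells (median 7.35) and 0.795 to 3.3 in ob/ob cells (median 1.99) and fell by 1.76 ± 0.21 on the log2 scale, Ptger4 fell by 0.30 ± 0.07 on the log2 scale, and the adenosine receptor Adora2a rose by 0.97 ± 0.13. The endothelin receptors Ednra (0.22) and Ednrb (1.41) rose and the serotonin receptor Htr1b fell (-0.90, separated). Mc4r, the melanocortin receptor, was named after its values were seen. Its 130 counts in WT libraries faced 0 in all 8 ob/ob libraries, which makes it at least 45.8-fold lower against a floor of 3 counts over the group.

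Among 23 vasoactive mediators and effectors 7 rose and 6 fell. Ren1, the renin gene, had 2.68 to 15.3 CPM in WT cells (median 6.25) and 11.1 to 41.7 in ob/ob cells (median 35.6) and rose by 2.08 ± 0.42, with overlap. The summed renin cell markers moved with it, from 13.6 to 32.1 CPM on average (exact permutation test, two-sided, p = 0.00761), and their part in the Ren1 result was not tested. Plcb4, a phospholipase downstream of Gq-coupled receptors, rose by 0.79 ± 0.09, separated. Nt5e and Entpd1 (-0.79 ± 0.11), enzymes that turn extracellular ATP into adenosine, both fell. Of 27 ion channel genes 9 rose and 5 fell. The mechanosensitive channel Piezo1 had 54.5 to 65.4 CPM in WT cells (median 57.9) and 76.2 to 95.3 in ob/ob cells (median 86.5) and rose by 0.55 ± 0.05, separated, while the more abundant Piezo2 was not called (-0.04 ± 0.06). The calcium-activated chloride channel Ano1 had 754 to 1045 CPM in WT cells (median 956) and 465 to 649 in ob/ob cells (median 557) and fell by 0.72 ± 0.08 on the log2 scale, separated. Clca3a1, a chloride channel regulator, had 0.561 to 3.25 CPM in WT cells (median 2.15) and 12.1 to 37.5 in ob/ob cells (median 15.6) and rose by 3.18 ± 0.31. The receptor-operated channels Trpc4 (-0.94 ± 0.13) and Trpc6 (-0.43 ± 0.10) fell and Trpv4 (0.78 ± 0.11) rose.

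Complement genes rose in 6 of 14 cases, with 1 lower (median 0.57). C1ra, which encodes the complement protease C1r, had 46.9 to 76.0 CPM in WT cells (median 71.9) and 103 to 152 in ob/ob cells (median 116) and rose by 0.82 ± 0.09. C1s1 (0.41 ± 0.07), its inhibitor Serping1 (0.68 ± 0.08) and the membrane inhibitor Cd59a (0.79 ± 0.11) rose too, all separated. C3 rose (2.05 ± 0.76) with both means below 1 CPM.

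Chemokine, cytokine and adhesion genes had 9 of 18 members higher and 2 lower (median 0.37). The counts were 5 and 2 with the replicate number as a block, 3 and 1 in males alone and 6 and 1 in females alone. Ccl2, the monocyte attractant, had 0.173 to 0.876 CPM in WT cells (median 0.432) and 0.515 to 7.42 in ob/ob cells (median 3.04) and rose by 3.12 ± 0.52 (edgeR adjusted p = 6.70e-06), with overlap. Csf1, the macrophage growth factor, had 36.1 to 53.8 CPM in WT cells (median 40.7) and 53.2 to 93.8 in ob/ob cells (median 60.1) and rose by 0.64 ± 0.11. Cx3cl1, a membrane-bound chemokine, had 84.3 to 133 CPM in WT cells (median 120.1) and 139 to 218 in ob/ob cells (median 171) and rose by 0.55 ± 0.10, the only separated member. Expression of 2 others was concentrated in 3 libraries. Cxcl2, a neutrophil attractant, had 46.8, 81.5 and 56.2 CPM in ob/ob females 1 to 3, 1.51 in ob/ob female 4, 3.22 to 20.8 in ob/ob males and 1.65 to 18.1 in WT cells. Icam1, the leukocyte adhesion molecule, had 217, 357 and 198 CPM in the same 3 libraries and 24.7 to 59.6 in WT cells. Log2 fold changes in females and males were 3.64 ± 0.75 and 0.57 ± 0.68 for Cxcl2 and 2.43 ± 0.41 and 0.48 ± 0.39 for Icam1, and the difference between sexes was not called for either. Immune cell markers summed to 6.75 CPM in WT and 7.94 in ob/ob cells on average (exact permutation test, two-sided, p = 0.384). Il6, Cxcl1 (0.40) and Vcam1 (-0.24) were not called, and Cd40 fell (-0.51).

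**Figure D3:**
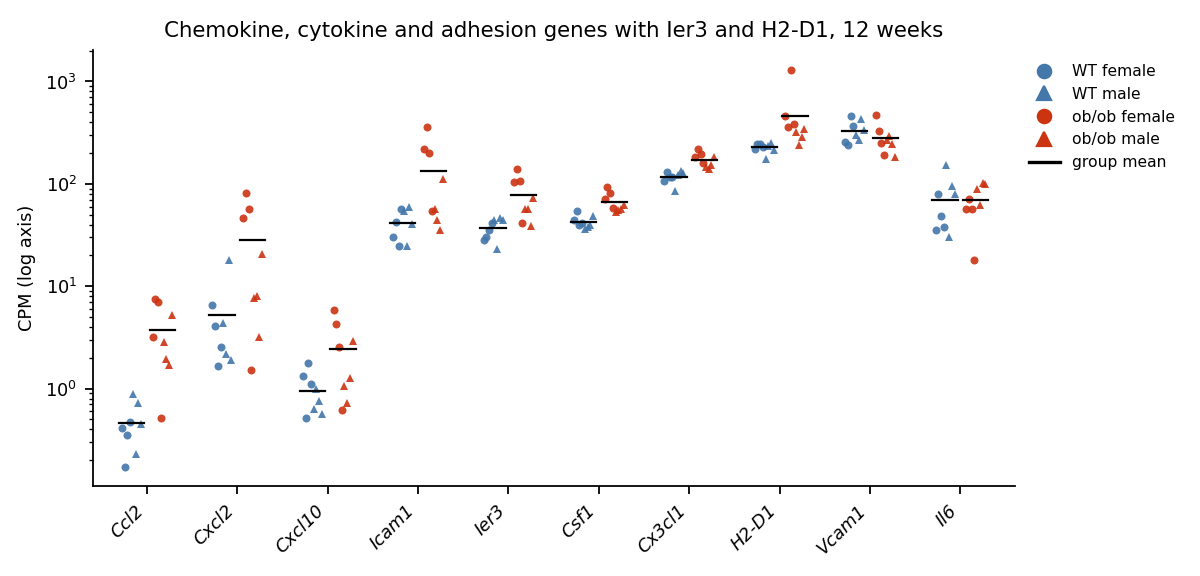
CPM (log axis) of 10 genes in each WT (blue) and ob/ob (red) library, circles for females and triangles for males, with a bar at the group mean. They are chemokine, cytokine and adhesion genes, with the immediate early gene Ier3 and the histocompatibility gene H2-D1. For Cxcl2 and Icam1 the 3 highest values are ob/ob females, and Vcam1 and Il6 overlap between genotypes.

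Of 30 genes of glucose handling none rose and 8 fell (26.7% called, against 22.5% of all tested genes, median -0.15), or 1 rose and 6 fell without the 3 libraries that stood apart. The number that fell was 3 with the replicate number as a block, 1 in females alone, 3 in males alone and 5 with the podocyte covariate, and 5 when WT male 4, ob/ob female 3, ob/ob female 4, ob/ob male 1 or ob/ob male 4 was left out. The hexosamine enzymes Gfpt1, the widely expressed relative of Gfpt2 (-0.05 ± 0.07), and Ogt (0.03) were not called, and Uap1 (-0.30), Gnpnat1 (-0.25) and Mgea5 (-0.19) fell slightly. Of the glucose transporters, Slc2a3 (-0.54 ± 0.14), Slc2a4 (-0.44 ± 0.15) and Slc2a10 (-0.54 ± 0.13) fell, and Slc2a1, with 17.1 to 29.0 CPM in WT cells (median 20.9) and 16.3 to 22.9 in ob/ob cells (median 19.4), was not called (-0.16 ± 0.10). The aldose reductase gene Akr1b3 (-0.16) and the glucose-responsive gene Txnip (0.18) were not called either.

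Insulin, leptin and growth hormone signalling had 9 of 25 members higher and 5 lower. Foxo1, a transcription factor restrained by insulin, had 49.0 to 62.4 CPM in WT cells (median 56.6) and 23.2 to 42.1 in ob/ob cells (median 33.6) and fell by 0.74 ± 0.08 on the log2 scale. Ghr, the growth hormone receptor, had 20.1 to 26.8 CPM in WT cells (median 20.7) and 33.2 to 44.9 in ob/ob cells (median 37.6) and rose by 0.80 ± 0.09. Both were separated. The insulin receptor substrates moved apart, Irs1 by -0.66 ± 0.10 and Irs2 by 0.67 ± 0.17, and Insr (0.18) and the leptin receptor Lepr (0.45) were not called. In lipid handling 9 of 33 rose and 6 fell (5 and 3 with the podocyte covariate). The cholesterol exporter Abcg1 had 6.5 to 12.4 CPM in WT cells (median 9.43) and 33.1 to 49.7 in ob/ob cells (median 39.8) and rose by 2.09 ± 0.16 (edgeR adjusted p = 4.82e-14), and Pparg, the adipogenic nuclear receptor, had 7.55 to 13.8 CPM in WT cells (median 11.5) and 15.8 to 26.5 in ob/ob cells (median 22.8) and rose by 0.98 ± 0.11. Both were separated, and Abca1 (0.66 ± 0.17) and the lipid droplet gene Plin2 (0.48 ± 0.10) rose with overlap. Sterol-regulated genes went the other way, with Insig1 at -1.09 ± 0.21 and Srebf2 at -0.46 ± 0.09, both called.

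Nuclear receptors had 4 of 26 members higher and 8 lower (2 and 8 with the podocyte covariate). Besides Vdr, the mineralocorticoid receptor gene Nr3c2 (-0.82 ± 0.12), Nr2f1 (-0.52 ± 0.06), both separated, and the oestrogen receptor gene Esr1 (-1.21 ± 0.26) fell. Aldh1a2, which makes retinoic acid, had 19.4 to 52.5 CPM in WT cells (median 33.8) and 146 to 369 in ob/ob cells (median 246) and rose by 2.89 ± 0.24 (edgeR adjusted p = 3.53e-13), separated, and the retinoic acid receptor Rarb rose (0.78 ± 0.10). None of the 18 clock genes was called by edgeR's quasi-likelihood test or by DESeq2 with all libraries (1 lower with the podocyte covariate or without WT female 3 or 4, 1 higher without ob/ob female 4, and 1 in each direction with the replicate block), and 1 (Clock) had an unadjusted p under 0.05 in edgeR, with the widest log2 fold changes at Npas2 (-1.41 ± 0.71) and Arntl (-0.97 ± 0.60).

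Cell cycle genes had 10 of 26 members higher and 3 lower (median 0.40), but 4 and 4 with the podocyte covariate, 5 and 3 with the replicate number as a block, and 1 and 3 in females alone against 10 and 2 in males alone. Mki67, a marker of cycling cells, had 17.4 to 52.1 CPM in WT cells (median 35.7) and 26.6 to 208 in ob/ob cells (median 80.8) and Top2a had 5.2 to 19.8 CPM in WT cells (median 13.9) and 6.6 to 70.4 in ob/ob cells (median 29.5). They rose by 1.44 ± 0.34 and 1.21 ± 0.35 with overlap between genotypes. The cyclin genes of the entry into the cycle moved apart, both separated, with 112 to 234 CPM in WT cells (median 185) and 248 to 483 in ob/ob cells (median 379.9) and a log2 fold change of 0.99 ± 0.13 for Ccnd1, and 58.0 to 82.9 CPM in WT cells (median 72.5) and 29.7 to 53.3 in ob/ob cells (median 38.8) and -0.81 ± 0.10 for Ccnd2. The replication gene Mcm2 (-0.06) and the inhibitor Cdkn1a (-0.53) were not called.

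Stromal transcription factors fell more often than they rose (15 of 36 lower, 6 higher, median -0.21). The counts were 10 and 4 with the podocyte covariate, and 9 and 4 in females alone. Tcf21, a factor of kidney stroma and podocytes, had 1.48 to 3.53 CPM in WT cells (median 2.32) and 0 to 0.979 in ob/ob cells (median 0.103) and fell 11.2-fold, separated. Wt1 had 98.2 to 153 CPM in WT cells (median 129.6) and 49.1 to 94.0 in ob/ob cells (median 61.5) and fell by 0.95 ± 0.11 on the log2 scale (edgeR adjusted p = 3.92e-09), and Nfatc4 had 40.9 to 54.5 CPM in WT cells (median 43.5) and 24.6 to 33.1 in ob/ob cells (median 26.1) and fell by 0.77 ± 0.09 on the log2 scale. Both were separated. Podocytes also express Wt1 and Tcf21. The summed podocyte markers were higher in the same ob/ob libraries, as given above, and their part in these results was not tested. Zeb1 (-0.40 ± 0.05) and Foxc1 (-0.52 ± 0.08) also fell and Tbx2 rose (0.54 ± 0.08), all separated. Of 24 immediate early and heat shock genes, which respond to dissociation, 1 rose (Ier3, 1.08 ± 0.22) and 1 fell (Dusp1, -0.31 ± 0.09). Fos, with 3478 to 5394 CPM in WT cells (median 4196) and 2997 to 4385 in ob/ob cells (median 3623), and Hspa1a, with 2176 to 7064 CPM in WT cells (median 4322) and 2018 to 5697 in ob/ob cells (median 3195), overlapped and were not called.

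**Figure D4:**
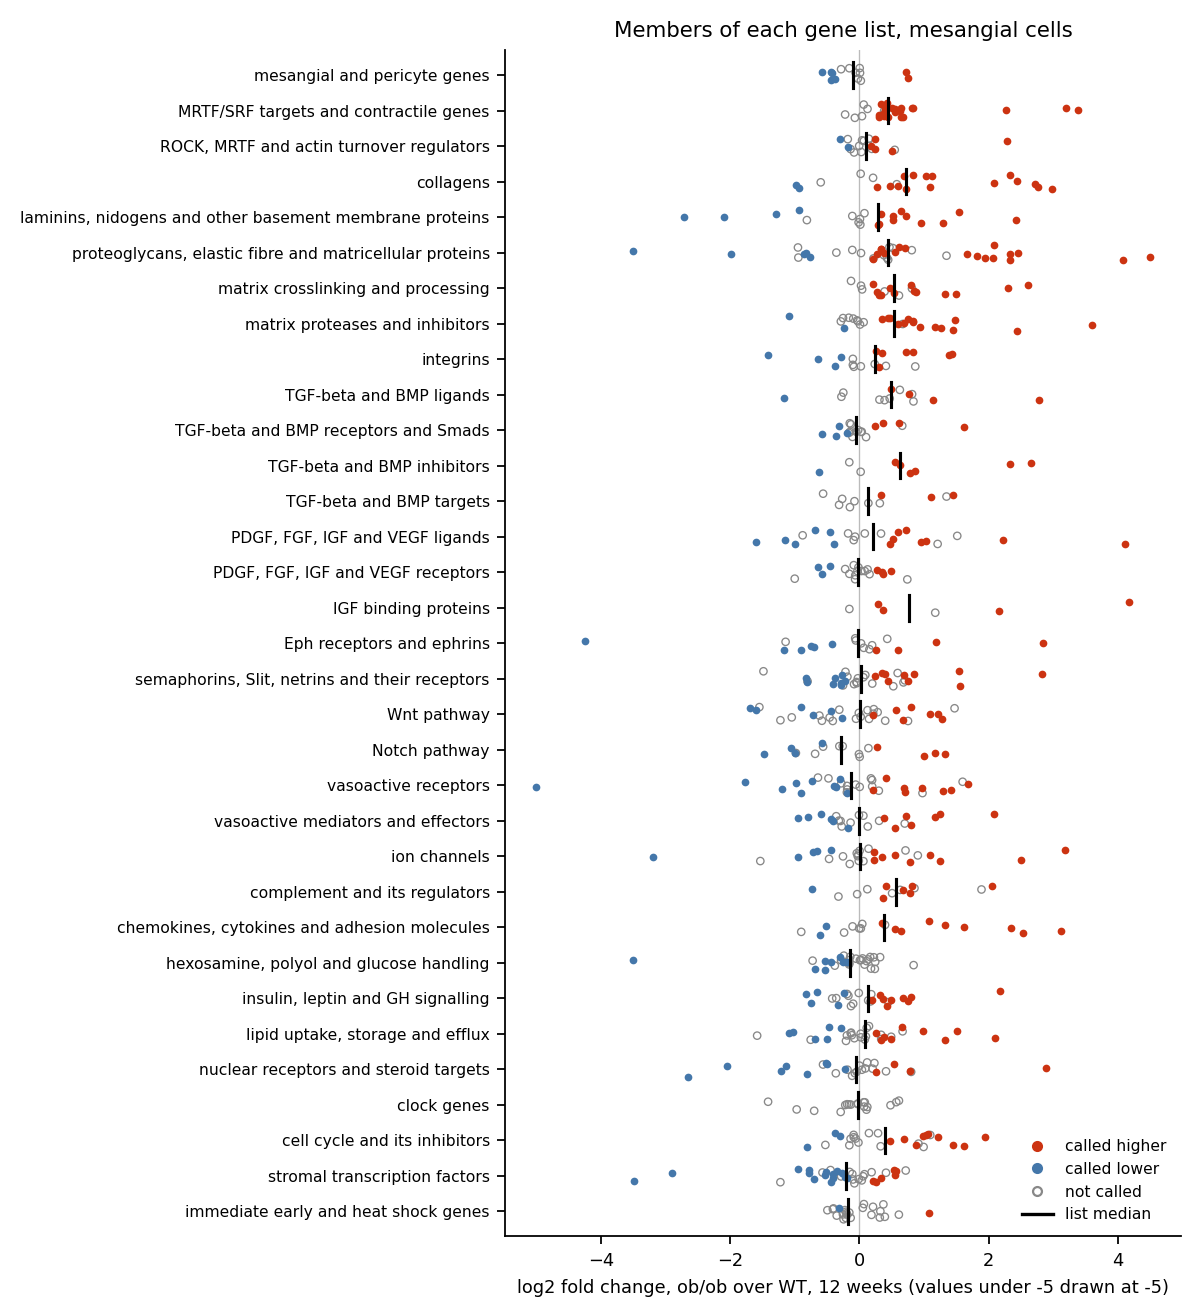
Log2 fold change (ob/ob minus WT, horizontal axis) of each tested member of the 33 gene groups, with called genes filled red when higher and blue when lower, other genes open, black bars at the group medians, and values under -5 drawn at -5. The contractile, collagen, crosslinking, protease and TGF-beta inhibitor groups have medians of 0.44, 0.72, 0.54, 0.54 and 0.63, and the clock group has no called member.

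The effect was compared between females and males. None of the 17951 genes (0%) differed between sexes in edgeR's quasi-likelihood test, with 1194 at an unadjusted p under 0.05 and 26 called by DESeq2. Tested within each sex, 1790 genes were called in females and 2967 in males. Angpt4 had 3.76 ± 0.35 in females and 4.5 ± 0.36 in males, and Dpep1 had 4.32 ± 0.46 and 3.06 ± 0.42.

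The comparison at 6 weeks (8 ob/ob, 8 WT) and 18 weeks (7 ob/ob, 7 WT) placed the 12-week values in time. It used other libraries and no shared controls. At 18 weeks the sexes were not balanced between genotypes, and fewer libraries can lower the number of calls. At 6 weeks 2313 genes and at 18 weeks 3473 genes were called in this model. Of the 4042 genes called at 12 weeks, 1734 (42.9%) were also called with the same sign at 6 weeks, 2324 (57.5%) at 18 weeks, 1470 (36.4%) at both ages, and 1447 (35.8%) at 12 weeks alone. A gene not called at another age is not shown to differ there. The effect itself differed from that at 6 weeks for 125 genes (0.696%), 43 (0.240%) with a higher and 82 (0.457%) with a lower log2 fold change at 12 weeks. With RLE scaling these were 58 and 66. The effect did not pass the test of a difference from 18 weeks for any gene (0%) in edgeR, with 1479 at an unadjusted p under 0.05 and 22 called by DESeq2.

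Genes with a higher effect at 12 than at 6 weeks included several described above. For Tmtc1 the log2 fold change was 2.2 at 6 weeks and 3.5 at 18 weeks, and the 12-week value was higher than that at 6 weeks by 1.48 ± 0.28 (edgeR adjusted p = 0.00568). Pparg (0.77 ± 0.15), the heparan sulphate sulphotransferase gene Hs6st2 (1.75 ± 0.35), the transmembrane collagen gene Col23a1 (0.93 ± 0.19) and Arnt2 (1.09 ± 0.22) had higher effects at 12 weeks in the same test. Falls deepened for Ltbp4, at -0.69 at 6 weeks and -1.81 at 18 weeks, with a difference of -1.3 ± 0.14 between 12 and 6 weeks (edgeR adjusted p = 2.34e-07). The same held for Postn (-1.75 ± 0.24, edgeR adjusted p = 5.12e-05) and Serpinb1a (-0.85 ± 0.13). Mustn1 and the adenylyl cyclase gene Adcy4, which were not called at 6 weeks, had lower effects at 12 weeks (by -1.22 ± 0.19 and -0.71 ± 0.12). Acta2, by contrast, had 2.82, 3.19 and 2.19 at 6, 12 and 18 weeks with no called difference.

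The effect was also compared with that in podocytes and gECs of the same age. Of the 12 largest mesangial rises, 3 were also called higher in podocytes and 5 in gECs. Of the 12 largest falls, 1 was also called lower in podocytes and 4 in gECs. The effect differed from podocytes for 3 of these rises and 6 of these falls, and from gECs for 6 and 8. These genes were chosen for their mesangial change. The effect in mesangial cells differed from that in podocytes for 1659 of 19663 genes (8.44%), with 804 (4.09%) higher and 855 (4.35%) lower in mesangial cells. It differed from that in gECs for 1275 genes (6.48%), 672 (3.42%) higher and 603 (3.07%) lower. In a model of the 48 libraries of that age, Tmtc1 had 4.79 ± 1.53 CPM in WT and 61.2 ± 14.8 in ob/ob mesangial cells (SD, n = 8 each). Podocytes, which expressed it far more, had 450.7 ± 25.0 and 484 ± 39.3 CPM, and the mesangial effect was larger by 3.6 ± 0.20 (edgeR adjusted p = 8.39e-18). Larger effects than in podocytes were also found for Abcg1 (2.84 ± 0.23), Col18a1 (2.69 ± 0.21), Dock4 (1.33 ± 0.09) and Npr1 (1.3 ± 0.10). Angpt4 rose in podocytes too (3.55 ± 0.81), at mean levels of 0.00377 CPM in WT and 0.0978 in ob/ob cells. Its effect was not called different from that in mesangial cells.

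Camk2a fell in mesangial cells and rose in podocytes. It had log2 fold changes of -2.25 in mesangial cells and 2.77 in podocytes, a difference of -5.03 ± 0.38 (edgeR adjusted p = 1.65e-13). Ndrg2 rose in podocytes from 0.0385 ± 0.0504 to 4.07 ± 2.69 CPM (SD, n = 8 each), while its mesangial levels were 16.9 ± 3.22 in WT and 11.5 ± 2.11 in ob/ob cells. Agap1 (-1.68 ± 0.10), Iqgap1 (-1.56 ± 0.11) and Pitpnc1 (-1.12 ± 0.09) also had lower effects in mesangial cells, and Iqgap1 was not called in mesangial cells alone.

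Against gECs the mesangial effect was higher for Angpt4 (4.66 ± 0.35, edgeR adjusted p = 4.08e-13), which had 1.35 ± 0.353 CPM in WT and 0.938 ± 0.390 in ob/ob gECs (SD, n = 8 each). Tmtc1 (2.96 ± 0.19), the scavenger receptor for the chemokine CXCL12 Ackr3 (3.85 ± 0.32), Limch1 (3.17 ± 0.28) and Dock4 (1.11 ± 0.09) followed. Lower effects were found for Plvap, the diaphragm protein of fenestrated endothelium, with 276 ± 65.5 and 182 ± 34.4 CPM in mesangial cells and 18.7 ± 6.31 and 156 ± 53.9 in gECs (WT and ob/ob, SD, n = 8 each), a difference of -3.65 ± 0.31. Ucp2 (-1.86 ± 0.13), Ltbp4 (-1.88 ± 0.17), Stard13 (-1.85 ± 0.16) and Serpini1 (-1.56 ± 0.14) had lower effects as well, Stard13 without being called in mesangial cells alone.

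**Figure D5:**
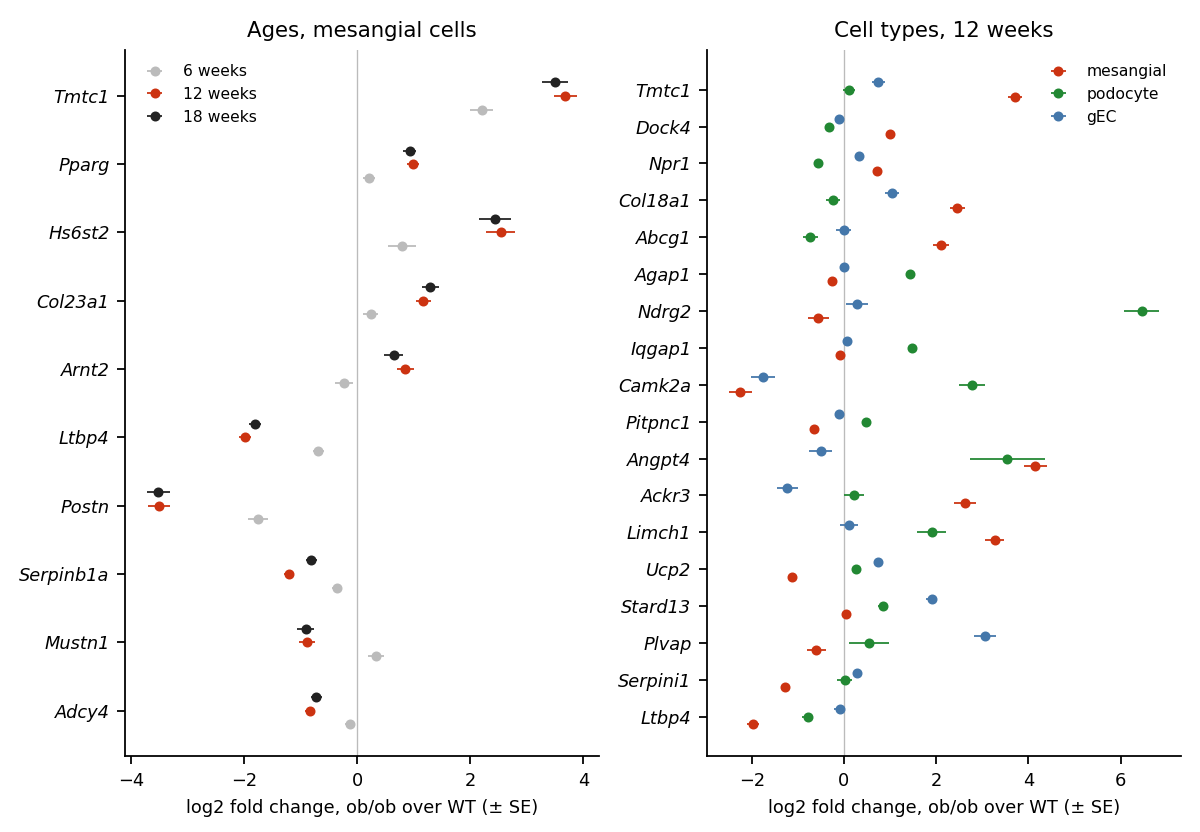
Left, log2 fold change ± SE (ob/ob minus WT) in mesangial cells at 6, 12 and 18 weeks for the 10 genes given above whose effect differed between 12 and 6 weeks. Right, log2 fold change ± SE in mesangial cells, podocytes and gECs at 12 weeks for 18 genes whose effect differed between cell types, with Camk2a below 0 in mesangial cells and above 0 in podocytes.

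Chromosome 6 around Lep was examined because the ob allele brings linked variants of its own. Lep itself (GRCm38 chr6:29060220-29073877) had 0 counts in all 16 libraries, so the genotype could not be read from it. Within 10 Mb of Lep, 26 of 114 tested genes were called (22.8%, 8 higher and 18 lower), against 22.5% of all genes. The called genes with the lowest p were Ptn (-0.68), Hipk2 (0.59), Wdr91 (-0.56), Cald1 (0.56), Smo (-0.74) and Calu (0.50). For Cald1 and Ptn, described above, an effect of linked variants and an effect of the diabetic state cannot be told apart.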

How the data were processed

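RNA was sequenced in bulk from sorted mouse glomerular cells (SMART-Seq Stranded libraries, single reads, NovaSeq). According to the methods and the submitters' processing notes, reads were checked with FastQC 0.11.5 and aligned to mm10 by RSEM 1.3.0 running Bowtie2 2.3.3.1. The annotation release was not given in the sources used here. The deposited expected counts are RSEM's estimates of reads per gene, not normalized, and the deposited TPM values were scaled by the authors' RSEM run for transcript length and a common sum. Estimated counts of genes with near-identical copies can be split between them. Of 46517 entries, 46005 were matched to GENCODE M21 for positions, and 197 that shared a symbol were named by identifier. Older symbols were kept.

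Expected counts were rounded, filtered with filterByExpr, scaled by TMM and tested with edgeR 4.0.16 (R 4.3.3, limma 3.58.1, data.table, version 1.17.8). The quasi-likelihood model held the 46 mesangial libraries in 6 groups of genotype and age, with sex as an additive term. Differences between sexes came from a model of 12 groups of genotype, age and sex, and differences between cell types from the 48 libraries of sorted cells at 12 weeks, with sex within cell type and no term for the mouse. Tests were two-sided, p values were adjusted by Benjamini-Hochberg over all tested genes, and a gene was called at an adjusted p under 0.05. Library sums were compared by exact permutation (lowest possible p 0.000155). TPM served for levels between genes and as an alternative.

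The comparison, the gene lists and the tests were chosen with earlier results of these data known. Named were the 12 largest rises and falls among called genes with separated groups and a mean of at least 5 CPM in the higher group, the 8 most abundant called genes changed at least 2-fold, up to 4 called members of each of 33 lists with the lowest p, up to 5 genes per direction for each difference tested (mean of at least 5 CPM in a group), and up to 6 called genes within 10 Mb of Lep. Other list members are given for their roles, some chosen after their values were seen. A few genes that this rule covers are not reported here. Promoters of 300 bases came from RefSeq (GRCm38.p6). In counts simulated for 17560 genes of the 12-week comparison, the test recovered 94% of 50 genes changed by -1, 54% by -0.5, 76% by 0.5 and 82% by 1 on the log2 scale, with 6 false calls among 17360 unchanged genes. The changed genes were drawn from those with a mean above 50 counts, so these rates do not cover genes with fewer counts. Each gene was simulated independently from its fitted spread, with far fewer changed genes than the 4042 called in the data. The rates need not hold for the data themselves. Alternatives were other scaling (RLE), filters and models, DESeq2 1.42.0, limma on log2(TPM + 1) and log2(TPM + 0.1), and leaving out libraries.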

Additional observations from a re-analysis of the deposited data

Results flagged for a closer look

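A total of 358 groups of 8 libraries were examined for a library far from the other 7, and 35 values stood out. The cutoff passes about 1 in 20 groups of independent, normally distributed values. These CPM values come from chosen genes in shared libraries, so that rate need not apply and no excess over chance is claimed. WT male 1 gave 14 of them. Its CPM was below that of every other WT library for C1ra (46.88, others 66.85 to 76.01), C1s1 (251, others 315.9 to 363.5), Calu (194, others 255.3 to 282.5), Cp (406.8, others 550.1 to 659.8), Des (673.1, others 849.5 to 924.8) and Fstl1 (238.9, others 340.0 to 373.1). The same held for H2-D1 (173.5), Igfbp4 (1128, others 1871 to 2414), Nid1 (1077), Plin2 (14.6), Plxnb2 (276.1) and Sema3f (14.39), and it was above every other WT library for Epha7 (111.4) and Gfpt2 (41.5, others 19.23 to 29.21).

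WT female 2 was above the other WT libraries for Col12a1 (366.1 CPM, others at most 281), Galnt3 (1.17), Hs6st2 (4.678), Ppp1r14a (4.462), Spon2 (12.52, others at most 3.393) and the summed podocyte markers (518.7 CPM, others at most 441.1). All of its 5 genes lay on the side of the ob/ob libraries. Among the other WT libraries, female 4 was high for Ackr3 (13.08) and female 1 low for Ptger2 (3.914).

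In ob/ob cells, female 3 was high for H2-D1 (1295 CPM, others 242.2 to 455.3), Col23a1 (71.63) and Serping1 (336.1), and female 4 was low for Galnt3 (4.5, others at least 13.07) and Man2a1 (1167). Female 2 was high for Itgb3 (2.315) and Jag2 (10.44) and female 1 for Mkl2 (116.2). Male 4 was high for Clca3a1 (37.47) and low for Sema3f (17.36), and its total of 18.74 M counts (M for mega) was the lowest of its group, whose other libraries held at least 29.03 M. Female 1 had summed proximal tubule markers of 41.75 CPM (others at most 19.67) and distal nephron markers of 28.8 CPM (others at most 10.13).

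Effects that differed between ages in edgeR's quasi-likelihood test, given as the log2 fold change at 12 weeks minus that at 6 weeks, were higher at 12 weeks for Tmtc1 (1.482), Pparg (0.7683), Hs6st2 (1.748), Col23a1 (0.9266) and Arnt2 (1.087). They were lower for Ltbp4 (-1.299), Postn (-1.751), Serpinb1a (-0.8545), Mustn1 (-1.221) and Adcy4 (-0.711). Col23a1 and Hs6st2 are also among the genes with a library that stood out, which touches these 2 differences.

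Effects in mesangial cells minus those in podocytes were above 0 for Tmtc1 (3.604), Dock4 (1.327), Npr1 (1.298), Col18a1 (2.692) and Abcg1 (2.836), and below 0 for Agap1 (-1.685), Ndrg2 (-7.016), Iqgap1 (-1.563), Camk2a (-5.026) and Pitpnc1 (-1.12). Minus those in gECs they were above 0 for Tmtc1 (2.957), Angpt4 (4.657), Dock4 (1.114), Ackr3 (3.848) and Limch1 (3.167), and below 0 for Ucp2 (-1.86), Stard13 (-1.846), Plvap (-3.654), Serpini1 (-1.559) and Ltbp4 (-1.879).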

How the results depend on the processing

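The count of 4042 called genes at 12 weeks lay between 2977 and 4206 with RLE factors, other filters, no sex term, the 12-week libraries alone, DESeq2 (1.42.0) or the deposited TPM, and between 3554 and 4101 without any 1 library. It was 2616 (1362 higher, 1254 lower) with the replicate number as a block, 2484 with the podocyte marker level as a covariate and 2003 in females alone, against 2917 in males alone and 4237 without WT male 1, WT female 2 and ob/ob female 4. The covariate and these choices of libraries were made after the data had been seen. Fewer libraries entered the fits of 1 sex, and the cause of the other shifts was not tested. Same-numbered ob/ob and WT libraries had residuals that correlated by -0.0847 to 0.142, and 5 of 8 numbers matched best with their own number, a hint of pairing from the data. Only 3 of the 8 correlations were over 0.1, the level asked of every pair, so the block is given as an alternative. The difference of the effect between 12 and 6 weeks (125 genes) gave 233 with DESeq2, 97 with the replicate block, and 83 (without ob/ob female 3) to 195 (without WT male 1) without 1 library. Between 12 and 18 weeks it gave 0 to 1 without 1 library (1 without ob/ob female 3 and 1 without ob/ob male 3), 22 with DESeq2 and 0 with the block. Between sexes it gave 0 to 2 without 1 library (2 without WT male 4, 2 without ob/ob female 3 and 1 without WT male 3), 1 with no filter, 26 with DESeq2 and 0 with the block. Mesangial cells against podocytes gave 1418 to 2181 and against gECs 1064 to 1717. In cells of the same genotype, sex and number, a block of the presumed mouse gave 2123 and 1587. The 163 named genes were checked for their 12-week effect, and none reversed under these alternatives. Leaving out 1 library lost the call of Dusp1 (-0.25 without ob/ob female 1 or male 1) and Igfbp6 (1.96 to 2.04 without WT female 2, 3 or 4), the block that of Pfkfb4 and Slc2a10, TPM that of Egfr, Mkl1 and Pfkfb4, and the podocyte covariate those of 11 genes (Arnt2, Cd40, Dusp1, Egfr, Igfbp4, Igfbp7, Insig1, Ndrg2, Plin2, Skil and Slc2a3), with values of -0.06 for Egfr, -0.62 for Insig1, -0.53 for Ndrg2 and -0.35 for Dusp1. In females alone 14 calls were lost and in males alone 4 (H2-D1, Ier3, Igfbp6 and Slc2a3). Genes below about 1 CPM rest on few counts per library, so their fold changes are less certain.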
